A study of Mus musculus with 16 samples.

Results

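The genes examined here are 48 mouse genes of the cell cycle and of DNA replication, matched by symbol to the gene names of the deposited expression table. All 48 were among the 18191 genes tested, out of 48709 gene features counted. They fall into 20 genes that act around the start of replication and in S phase, 23 genes that act in mitosis, and 5 genes made up of the D-type cyclins and the inhibitors Cdkn1a and Cdkn1b. The RNA came from salivary glands of wild-type ICR mice at embryonic day 13 (E13), separated into epithelium and mesenchyme. Epithelium and mesenchyme of the parotid, and the same layers of the submandibular gland, gave 4 libraries each. The labels call the 4 libraries of a group independent biological replicates, without saying how many glands or embryos went into each. The series' design text also mentions a culture step before dissection that the samples' own harvest protocol does not describe, so the exact state of the tissue is not settled by the labels. No cells were sorted, and each library holds every cell of its tissue piece.

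A cell that divides passes a restriction point in G1, copies its DNA in S phase and separates the copies in mitosis. D-type cyclins with CDK4 and CDK6 release E2F factors from the retinoblastoma protein, E2F factors switch on the replication genes, and the mitotic genes follow later under the DREAM and MuvB complexes with B-MYB and FOXM1. In the embryonic salivary gland the epithelium grows by branching into end buds inside a mesenchyme that feeds it growth factors.

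The labelled layers matched their markers. The summed level of 12 epithelial markers was 3017 to 3453 CPM (read counts scaled to library size) in parotid epithelium, 15.8 to 56.7 in parotid mesenchyme, 2988 to 3552 in submandibular epithelium and 38.8 to 63.4 in submandibular mesenchyme. The sum of 12 mesenchymal markers ran the other way, with 81.2 to 396 CPM in parotid epithelium, 21614 to 31300.1 in parotid mesenchyme, 21.6 to 299 in submandibular epithelium and 13958 to 16369 in submandibular mesenchyme. Libraries held 16912258 to 27646844 gene counts. The library farthest from its group in these genes was parotid mesenchyme replicate 4, the lowest of its group for 45 of the 48 genes, with a median of 65.7% of the mean of the other 3 libraries. Within submandibular mesenchyme, replicate 2 was the lowest for 31 and replicate 4 the highest for 26 of the 48. The counts, sums and calls that involve parotid mesenchyme are given with and without its replicate 4 for the main results.

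Epithelium carried more RNA of the cell cycle genes than mesenchyme in both glands. In the parotid, 41 of 48 genes were higher in epithelium and 2 were lower at an adjusted p under 0.05, against 31.4% higher and 33.5% lower among all genes tested. In the submandibular gland, 42 were higher and 1 was lower, against 33.3% and 33.7% of all genes. Tests were edgeR quasi-likelihood tests with Benjamini-Hochberg adjustment over all 18191 genes, and fold changes are on the log2 scale, epithelium over mesenchyme. The median log2 fold change of the 48 genes was 1.09 in the parotid and 1.34 in the submandibular gland, beside medians of -0.00 and 0.01 over all genes. Without parotid mesenchyme replicate 4, 38 genes were higher and 3 lower in parotid epithelium with a median of 0.93, against 27.4% higher and 32.7% lower among all genes. In whole tissue RNA, fewer dividing cells and less RNA per cell cannot be told apart.

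The mitotic genes differed between the layers throughout. All 23 were higher in epithelium in each gland, beside 31.4% of all genes in the parotid and 33.3% in the submandibular gland. Their median log2 fold change was 1.40 in the parotid and 1.55 in the submandibular gland. A difference of at least 2-fold was reached by 20 of the 23 in the parotid and by all 23 in the submandibular gland, beside 13.9% and 16.8% of all genes. No library overlapped between the layers for 22 of the 23 in the parotid, where Mybl2 overlapped, and for all 23 in the submandibular gland. Among all genes, every epithelial library lay above every mesenchymal library for 27.8% in the parotid and 31.2% in the submandibular gland.

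**Figure D1:**
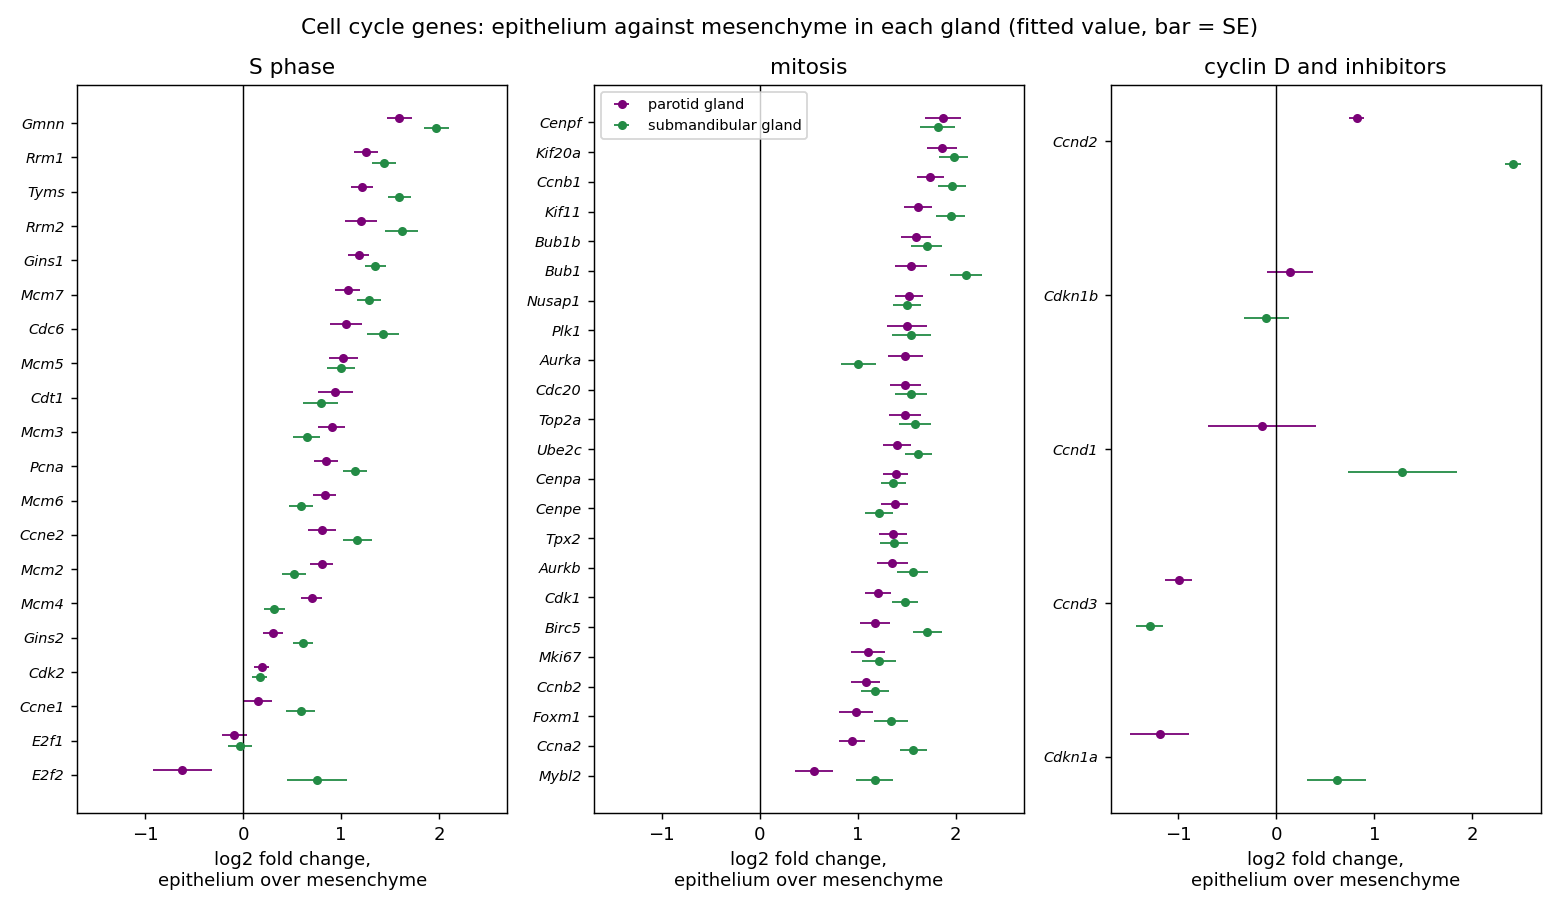
Fitted log2 fold change of each of the 48 genes, epithelium over mesenchyme (x axis), in the parotid (purple) and submandibular gland (green), with genes on the y axis by class and bars for the standard error. All 23 mitotic genes lie right of 0 in both glands, whereas Ccnd3 lies left of 0 in both and Ccnd2 is farther right in the submandibular gland.

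Among the kinetochore and spindle genes, Cenpf (GRCm38 chr1:189640606-189688086), a large kinetochore protein, had the highest parotid fold change. It measured 261, 222, 170.3 and 179.8 CPM in parotid epithelium, against 67.8, 68.8, 55.3 and 36.5 CPM in parotid mesenchyme. Every epithelial library lay above every mesenchymal library, and the log2 fold change was 1.87 ± 0.18 (SE, adjusted p = 1.27e-07). For the submandibular gland, the spindle checkpoint kinase Bub1 (chr2:127801122-127831865) led, with 146, 133, 153 and 121 CPM in epithelium, against 29.3, 24.1, 38.4 and 36.9 CPM in mesenchyme. Its log2 fold change of 2.10 ± 0.16 (adjusted p = 6.26e-09) again came without overlap between the layers. The motor proteins Kif11, which pushes spindle poles apart, and Kif20a, which acts in cytokinesis, were also far apart. Kif11 averaged 251 ± 34.7 CPM in parotid epithelium and 82.1 ± 18.5 in parotid mesenchyme, and 265 ± 26.4 in submandibular epithelium and 68.6 ± 6.75 in submandibular mesenchyme (SD, n = 4 each).

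The smallest mitotic differences belonged to a regulator and a kinase. Mybl2, which encodes B-MYB, measured 31.7, 42.6, 42.8 and 40.2 CPM in parotid epithelium, against 36.2, 33.2, 20.3 and 17.7 CPM in parotid mesenchyme. The lowest epithelial library lay below the 2 highest mesenchymal libraries, and the log2 fold change was 0.55 ± 0.19 (adjusted p = 0.0167). That call was lost without parotid mesenchyme replicate 3 (0.45) and without replicate 4 (0.36). Aurka, the spindle pole kinase Aurora A, was the smallest in the submandibular gland, with 159, 166, 135 and 137 CPM in epithelium, against 50.8, 94.7, 81.7 and 70.0 CPM in mesenchyme. Its log2 fold change of 1.01 ± 0.18 (adjusted p = 0.000103) still left the layers apart in every library.

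The engine of mitotic entry showed the same layer pattern. Cdk1, the mitotic kinase, averaged 247 ± 29.98 CPM in parotid epithelium and 107 ± 21.8 in parotid mesenchyme, and 296 ± 29.2 in submandibular epithelium and 106 ± 10.4 in submandibular mesenchyme (SD, n = 4 each). Its partner Ccnb1 had log2 fold changes of 1.74 ± 0.14 in the parotid and 1.96 ± 0.14 in the submandibular gland. Ccnb2 differed less, at 1.08 ± 0.14 and 1.18 ± 0.15. Mki67, the Ki-67 antigen used to count dividing cells, was higher by 1.101 ± 0.17 in the parotid and 1.22 ± 0.17 in the submandibular gland. Top2a, the topoisomerase that untangles sister chromatids, was higher by 1.48 ± 0.16 and 1.58 ± 0.16. Ube2c and Cdc20, which carry out protein destruction at anaphase, were higher by 1.40 ± 0.14 and 1.48 ± 0.16 in the parotid and by 1.62 ± 0.14 and 1.54 ± 0.16 in the submandibular gland.

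The remaining mitotic genes had intermediate values. The checkpoint kinase Bub1b was higher by 1.60 and 1.70, the mitotic kinases Aurkb and Plk1 by 1.35 and 1.503 in the parotid and by 1.56 and 1.55 in the submandibular gland. The centromere proteins Cenpa and Cenpe were higher by 1.39 and 1.37 in the parotid and by 1.36 and 1.21 in the submandibular gland, and the spindle proteins Tpx2 and Nusap1 by 1.36 and 1.52 and by 1.37 and 1.4995. Birc5, which encodes survivin, was higher by 1.18 and 1.71, and Foxm1, a transcription factor of mitotic genes, by 0.98 and 1.34. Without parotid mesenchyme replicate 4 the parotid median of the 23 genes was 1.23, and 22 remained called, all but Mybl2.

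Most S phase genes were higher in epithelium too, with lower medians and a wider range of values. In the parotid 17 of 20 were higher and none was lower, against 31.4% higher and 33.5% lower among all genes. In the submandibular gland 18 of 20 were higher and none was lower, against 33.3% and 33.7% of all genes. The median log2 fold change of the 20 was 0.88 in the parotid and 0.90 in the submandibular gland. A 2-fold difference was reached by 8 and 10 of the 20, beside 13.9% and 16.8% of all genes. The exceptions were Ccne1, E2f1 and E2f2 in the parotid, and Cdk2 and E2f1 in the submandibular gland. Without parotid mesenchyme replicate 4, 15 of the 20 were higher in parotid epithelium, 1 was lower (E2f2), and the median was 0.73. In that fit 27.4% of all genes were higher and 32.7% lower.

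Gmnn (GRCm38 chr13:24751845-24761923), which encodes geminin, the inhibitor of origin relicensing, was the S phase gene farthest apart in both glands. It measured 97.5, 88.3, 92.6 and 86.6 CPM in parotid epithelium, against 38.6, 30.1, 29.4 and 22.7 CPM in parotid mesenchyme. Submandibular levels were 122, 102, 103 and 98.7 CPM in epithelium, against 27.2, 25.02, 29.5 and 26.95 CPM in mesenchyme. The log2 fold changes were 1.60 ± 0.13 (adjusted p = 8.04e-09) and 1.97 ± 0.13 (adjusted p = 6.17e-10), with no overlap. The genes of nucleotide supply came next: Rrm1, Rrm2 (ribonucleotide reductase) and Tyms (thymidylate synthase) had log2 fold changes of 1.25, 1.21 and 1.21 in the parotid and 1.44, 1.62 and 1.59 in the submandibular gland.

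The 6 subunits of the MCM helicase did not move as 1 block. In the parotid their log2 fold changes lay between 0.70 (Mcm4) and 1.07 (Mcm7). In the submandibular gland they lay between 0.32 (Mcm4, adjusted p = 0.0137) and 1.28 (Mcm7). Mcm4 averaged 369 ± 37.6 CPM in parotid epithelium and 227 ± 34.4 in parotid mesenchyme, and 330.0 ± 25.9 in submandibular epithelium and 264 ± 19.9 in submandibular mesenchyme (SD, n = 4 each). The submandibular call of Mcm4 was lost without submandibular epithelium replicate 3 (0.28), and with total count scaling (0.20), no low count filter (0.25) or the authors' scaling (0.23). Of the loading factors, Cdc6 was higher in epithelium by 1.05 ± 0.16 and 1.43 ± 0.16, and Cdt1 by 0.94 ± 0.18 and 0.79 ± 0.18. The GINS subunit Gins1 was higher by 1.18 ± 0.11 and 1.35 ± 0.11, and Gins2 by 0.31 ± 0.10 and 0.61 ± 0.10. The parotid call of Gins2 was lost without parotid mesenchyme replicate 4 (0.22). Reads of Gins2 cannot be told apart from those of its opposite-strand neighbour Gse1, which covers 67.3% of its exonic bases.

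E2f1, a transcription factor that switches on replication genes, differed least between the layers. It measured 42.3, 41.8, 42.0 and 45.6 CPM in parotid epithelium, against 52.8, 52.3, 43.0 and 34.4 CPM in parotid mesenchyme. The submandibular libraries had 29.9, 32.4, 30.8 and 39.4 CPM in epithelium, against 34.9, 31.8, 32.8 and 35.8 CPM in mesenchyme. The layers overlapped in both glands, and the log2 fold changes of -0.09 ± 0.12 and -0.03 ± 0.12 did not pass the test (adjusted p = 0.551 and 0.85). Cdk2, the S phase kinase, was near the same point, with 0.19 ± 0.08 (adjusted p = 0.0362) and 0.17 ± 0.08 (adjusted p = 0.0548). Its parotid call was lost without parotid epithelium replicate 2 or 3 and without parotid mesenchyme replicate 3 or 4, and in 5 other settings.

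The E-type cyclin and E2F genes were the least regular of the S phase class. Ccne1, which encodes cyclin E1, the activator of Cdk2, measured 119.6, 126, 141 and 148 CPM in parotid epithelium, against 137, 155, 112 and 78.1 CPM in parotid mesenchyme. Those layers overlapped (0.15 ± 0.15, adjusted p = 0.39), and the value was -0.05 without parotid mesenchyme replicate 4. It measured 108, 118, 112 and 125 CPM in submandibular epithelium, against 75.9, 74.8, 71.4 and 86.6 CPM in submandibular mesenchyme, with no overlap (0.59 ± 0.15, adjusted p = 0.0024). Ccne2 was higher in epithelium in both glands, by 0.81 and 1.17. E2f2, an activating E2F factor at low level, measured 8.61, 12.3, 11.8 and 13.5 CPM in parotid epithelium, against 24.7, 22.7, 16.8 and 7.002 CPM in parotid mesenchyme. Its parotid value of -0.62 ± 0.30 did not pass (adjusted p = 0.0804), and without parotid mesenchyme replicate 4 it was -0.93 and called lower. Its submandibular value of 0.75 ± 0.31 (adjusted p = 0.0388) lost its call in 6 of the 16 fits that left out 1 library and in 8 other settings.

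Summed over a class, the level of the 20 S phase genes was 4279, 4274, 4468 and 4645 CPM in parotid epithelium, against 2771, 2659, 2347 and 1776 CPM in parotid mesenchyme. In the submandibular gland it was 4281, 4519, 4307 and 4159 CPM in epithelium, against 2264, 2061, 2279.8 and 2383 CPM in mesenchyme. The sum of the 23 mitotic genes was 5554, 5168, 4786 and 4524 CPM in parotid epithelium, against 2249.8, 2149.6, 1759 and 1351 CPM in parotid mesenchyme. The submandibular mitotic sum was 5571, 5228, 5155 and 4879.9 CPM in epithelium, against 1690.5, 1538, 1883 and 1904 CPM in mesenchyme. The mean S phase sum in epithelium was thus 1.85 and 1.92 times that in mesenchyme, and the mean mitotic sum 2.67 and 2.97 times, in the parotid and the submandibular gland. The ratio of the mitotic sum to the S phase sum was 0.974 to 1.30 in parotid epithelium, 0.749 to 0.812 in parotid mesenchyme, 1.16 to 1.30 in submandibular epithelium and 0.746 to 0.826 in submandibular mesenchyme. Without parotid mesenchyme replicate 4 the parotid values were 1.704 for the S phase sum and 2.44 for the mitotic sum. No epithelial library had a ratio as low as any mesenchymal library. Within parotid epithelium, replicate 4 had the highest S phase sum and the lowest mitotic sum. These sums describe the libraries and were not tested.

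**Figure D2:**
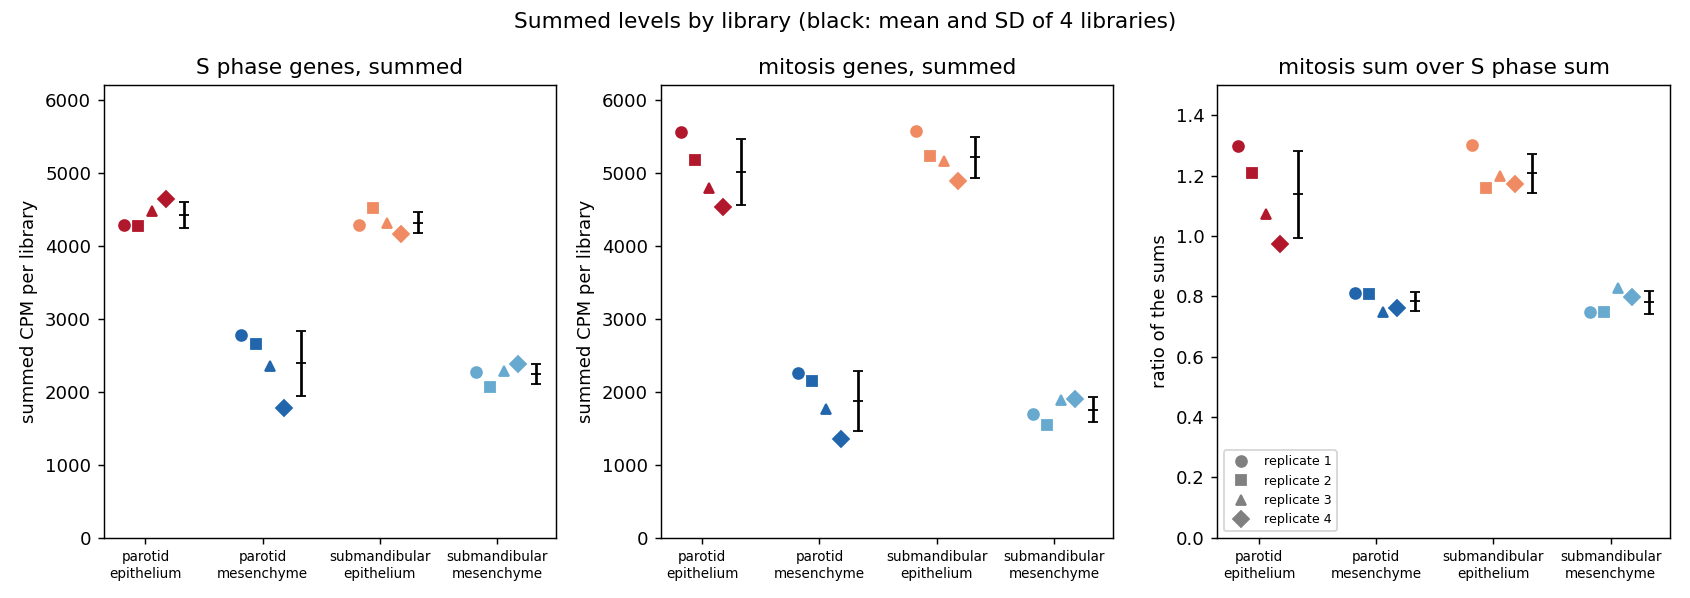
Summed CPM per library of the 20 S phase genes (left) and the 23 mitotic genes (middle), and the ratio of the sums (right), for the 4 groups on the x axis, with black bars for the mean and SD of 4 libraries. Epithelial libraries lie above mesenchymal ones in all 3 panels, and parotid mesenchyme replicate 4 has the lowest S phase sum and mitotic sum.

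Promoter sequence was not used to choose the genes and is shown for those whose letters bear on the 2 classes. RefSeq promoters of GRCm38.p6, each 300 bases long with 250 before the start and 50 after it, were found for 36 of the 48 genes. Where a gene had several, the first listed was used. The shares over all promoters count every listed promoter, 32851 for 27025 genes, so the units differ. Letters were searched on both strands: TTTGAA or TTCGAA for the cell cycle homology region (CHR), CCAAT for the box bound by NF-Y, and TTTGGCGC, TTTCCCGC, TTTGCCGC or TTTCGCGC for E2F sites. The following windows are the 150 bases before the start, 5′ to 3′ on the gene's strand, with matches in capitals, for 4 mitotic genes whose windows hold both CHR and CCAAT letters, and for 2 S phase genes with E2F letters. Cdk1 is at chr10:69352913-69353062 (minus strand), Cdc20 at chr4:118437344-118437493 (minus strand), Ube2c at chr2:164769779-164769928 (plus strand), Top2a at chr11:99024190-99024339 (minus strand), Mcm6 at chr1:128359706-128359855 (minus strand) and Cdk2 at chr10:128705052-128705201 (minus strand).
Cdk1: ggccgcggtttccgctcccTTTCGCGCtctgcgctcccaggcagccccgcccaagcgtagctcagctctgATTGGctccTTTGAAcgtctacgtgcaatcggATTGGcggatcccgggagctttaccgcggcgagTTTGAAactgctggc
Cdc20: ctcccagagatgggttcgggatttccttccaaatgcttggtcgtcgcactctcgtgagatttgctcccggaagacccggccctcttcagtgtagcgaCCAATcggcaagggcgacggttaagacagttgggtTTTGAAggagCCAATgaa
Ube2c: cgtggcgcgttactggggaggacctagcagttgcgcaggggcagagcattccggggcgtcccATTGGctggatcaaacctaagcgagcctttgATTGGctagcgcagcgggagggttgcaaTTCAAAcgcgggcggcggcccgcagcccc
Top2a: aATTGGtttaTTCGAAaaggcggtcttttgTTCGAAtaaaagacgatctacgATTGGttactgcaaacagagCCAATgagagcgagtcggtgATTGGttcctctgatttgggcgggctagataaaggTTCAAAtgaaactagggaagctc
Mcm6: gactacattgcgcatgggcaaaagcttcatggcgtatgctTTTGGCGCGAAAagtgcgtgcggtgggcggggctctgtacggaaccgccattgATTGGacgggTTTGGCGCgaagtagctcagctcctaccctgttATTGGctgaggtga
Cdk2: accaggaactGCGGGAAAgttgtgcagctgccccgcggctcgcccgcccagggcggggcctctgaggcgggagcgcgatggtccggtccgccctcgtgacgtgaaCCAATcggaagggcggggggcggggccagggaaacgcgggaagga

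A match to the CHR letters was present in 13 of 18 mitotic promoters (72.2%), 2 of 15 S phase promoters (13.3%) and 0 of 3 promoters of cyclin D or inhibitor genes, beside 19.2% of 32851 promoters in the table. CCAAT was present in 15 of 18 mitotic promoters (83.3%) and 10 of 15 S phase promoters (66.7%), beside 37.4% of all. Both CHR and CCAAT letters were in 13 of 18 mitotic and 2 of 15 S phase promoters, beside 7.52% of all. E2F letters were in 8 of 15 S phase promoters (53.3%) and in 1 of 18 mitotic promoters, that of Cdk1, beside 2.26% of all. In the printed windows the CHR match nearest the start of Cdk1, Cdc20, Ube2c and Top2a begins 15, 18, 29 and 23 bases before it, and each has CCAAT letters farther upstream. Mcm6, whose layer fold changes were 0.83 and 0.59, has 3 E2F matches, 2 of which overlap each other. Matches of different motifs overlapped once in the 36 promoters. These letters describe the windows and do not show that a factor binds there.

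**Figure D3:**
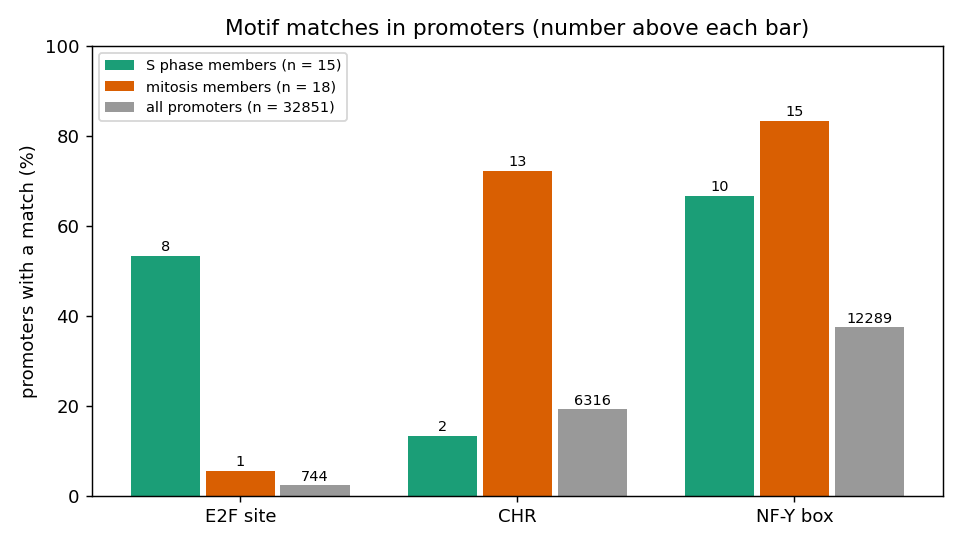
Share of promoters (y axis, %) with a match to the E2F, CHR and NF-Y box letters (x axis) for 15 S phase genes (green), 18 mitotic genes (orange) and all 32851 promoters (grey), with the number of promoters above each bar. CHR letters are in 72.2% of mitotic promoters and E2F letters in 53.3% of S phase promoters, beside 19.2% and 2.26% of all.

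Other mitotic and replication genes were mostly higher in epithelium too. Of 37 tested genes from a further list of 38 mitotic genes, 35 were higher in epithelium in the parotid and 37 in the submandibular gland, and none was lower, with median log2 fold changes of 1.37 and 1.53. The kinase Ttk, the cytokinesis factor Ect2 and the checkpoint protein Mad2l1 were among the farthest apart. Mad2l1 averaged 157 ± 12.7 CPM in parotid epithelium and 44.2 ± 5.64 in parotid mesenchyme, and 201 ± 31.9 in submandibular epithelium and 43.1 ± 5.15 in submandibular mesenchyme (SD, n = 4 each). Of 38 further replication genes, 36 were higher and 1 was lower in the parotid and 34 were higher and none lower in the submandibular gland, with medians of 0.78 and 0.80. Mcm10, an origin firing factor, led that list with log2 fold changes of 1.92 ± 0.19 and 2.43 ± 0.19. Among all genes, 31.4% were higher in epithelium in the parotid and 33.3% in the submandibular gland, with medians of -0.00 and 0.01. Both lists were chosen with earlier results of these data known.

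Markers of other cell types moved with the layer. Endothelial markers were lower in epithelium for 8 of 8 genes in each gland, with sums of 2.12 to 11.6 CPM in parotid epithelium, 519 to 799.6 in parotid mesenchyme, 3.45 to 6.05 in submandibular epithelium and 564 to 796 in submandibular mesenchyme. Leukocyte markers were lower for 9 of 9 genes in each gland, with sums of 16.6 to 26.2, 56.8 to 102, 3.38 to 8.86 and 44.5 to 62.0 CPM in the same order of groups. Erythroid markers were lower for 7 and for 8 of 8 tested genes, with sums of 59.5 to 494, 1441 to 2189, 7.38 to 732 and 3292 to 4137 CPM. Skeletal muscle markers were lower for 8 of 8 genes in the parotid and 7 of 8 in the submandibular gland, with sums of 7.13 to 49.4, 388 to 1517, 14.1 to 28.4 and 172 to 354 CPM. Smooth muscle markers were lower for 6 of 6 genes in the parotid and 4 of 6 in the submandibular gland, where 1 was higher, with sums of 10.3 to 31.3, 180.6 to 363, 22.6 to 41.3 and 72.1 to 89.0 CPM. Nerve markers were lower for 4 of 7 genes in the parotid, and lower for 6 and higher for 1 in the submandibular gland, with sums of 3.14 to 9.69, 258 to 607, 14.2 to 38.3 and 29.9 to 163 CPM. Schwann cell markers were lower for 4 of 6 genes and higher for 1 in each gland, with sums of 159.7 to 314.9, 20.9 to 82.2, 156.8 to 268 and 34.4 to 57.3 CPM. The Schwann cell sum was thus higher in epithelium, against the direction of most of its genes, and does not stand for the list. Of these 7 lists, only the muscle regulator Myf5 in submandibular epithelium and the Schwann cell marker Cdh19 in parotid epithelium were at 0 in every library of a group. The part of these cells in the layer difference was not tested.

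The D-type cyclins differed from each other by layer, and only Ccnd2 was called between the glands. Cyclin D2, encoded by Ccnd2 (GRCm38 chr6:127125162-127152193), couples growth signals to G1. Its level was 1293, 1399.6, 1366 and 1299 CPM in parotid epithelium, against 765, 675, 731 and 861 CPM in parotid mesenchyme. Submandibular levels were 1584, 1409.7, 1631 and 1660.1 CPM in epithelium, against 284, 296, 300.5 and 298 CPM in mesenchyme. Submandibular mesenchyme was thus the low group, with all 4 libraries below every other library. The epithelial log2 excess was 0.82 ± 0.08 in the parotid (adjusted p = 5.95e-08) and 2.41 ± 0.08 in the submandibular gland (adjusted p = 7.60e-13).

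Ccnd3 (chr17:47505051-47599691) ran the opposite way. It measured 184, 219, 241 and 205 CPM in parotid epithelium, against 418, 528, 418 and 328 CPM in parotid mesenchyme. The submandibular libraries had 164, 193, 236 and 176.9 CPM in epithelium, against 452, 448, 546 and 439 CPM in mesenchyme. It was lower in epithelium without overlap, by log2 fold changes of -0.99 ± 0.14 (adjusted p = 6.69e-06) and -1.29 ± 0.14 (adjusted p = 3.10e-07). Ccnd3 was the only 1 of the 48 genes called lower in epithelium in both glands.

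Ccnd1 (chr7:144929931-144939925), the other D-type cyclin, varied widely between libraries of a group and did not pass the test. It measured 59.5, 78.4, 147 and 225 CPM in parotid epithelium, against 91.1, 187, 187 and 97.2 CPM in parotid mesenchyme. In the submandibular gland it measured 169.5, 62.0, 221 and 208 CPM in epithelium, against 63.2, 17.2, 81.4 and 109 CPM in mesenchyme. The layers overlapped in both glands, with log2 fold changes of -0.14 ± 0.55 (adjusted p = 0.832) and 1.29 ± 0.56 (adjusted p = 0.0563). The submandibular value passed the threshold in DESeq2, with the replicate number as a block (1.34), and without parotid epithelium replicate 4, submandibular epithelium replicate 2 or submandibular mesenchyme replicate 4. The opposite-strand gene LTO1 overlaps 23.4% of its exonic bases.

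On a per-length scale (RPKM, CPM divided by exonic length in kilobases), Ccnd2 made up 73.9% ± 6.56 of the summed D-type cyclin level in parotid epithelium, 51.2% ± 8.54 in parotid mesenchyme, 74.98% ± 4.59 in submandibular epithelium and 31.8% ± 3.42 in submandibular mesenchyme (SD, n = 4 each). Ccnd3 made up 12.5% ± 1.03, 30.3% ± 4.32, 9.87% ± 1.78 and 54.2% ± 4.83 in the same groups. The lengths join all annotated exons of a gene (4709 bases for Ccnd1, 9409 for Ccnd2 and 8775 for Ccnd3). The transcripts expressed were not resolved and can be shorter, so shares between genes depend on that choice. Submandibular mesenchyme was the group where Ccnd3 took the largest share, in each of its 4 libraries. On the same per-length scale Ccnd2 reached 142 ± 5.49 RPKM in parotid epithelium, 80.6 ± 8.28 in parotid mesenchyme, 167 ± 11.9 in submandibular epithelium and 31.3 ± 0.804 in submandibular mesenchyme.

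**Figure D4:**
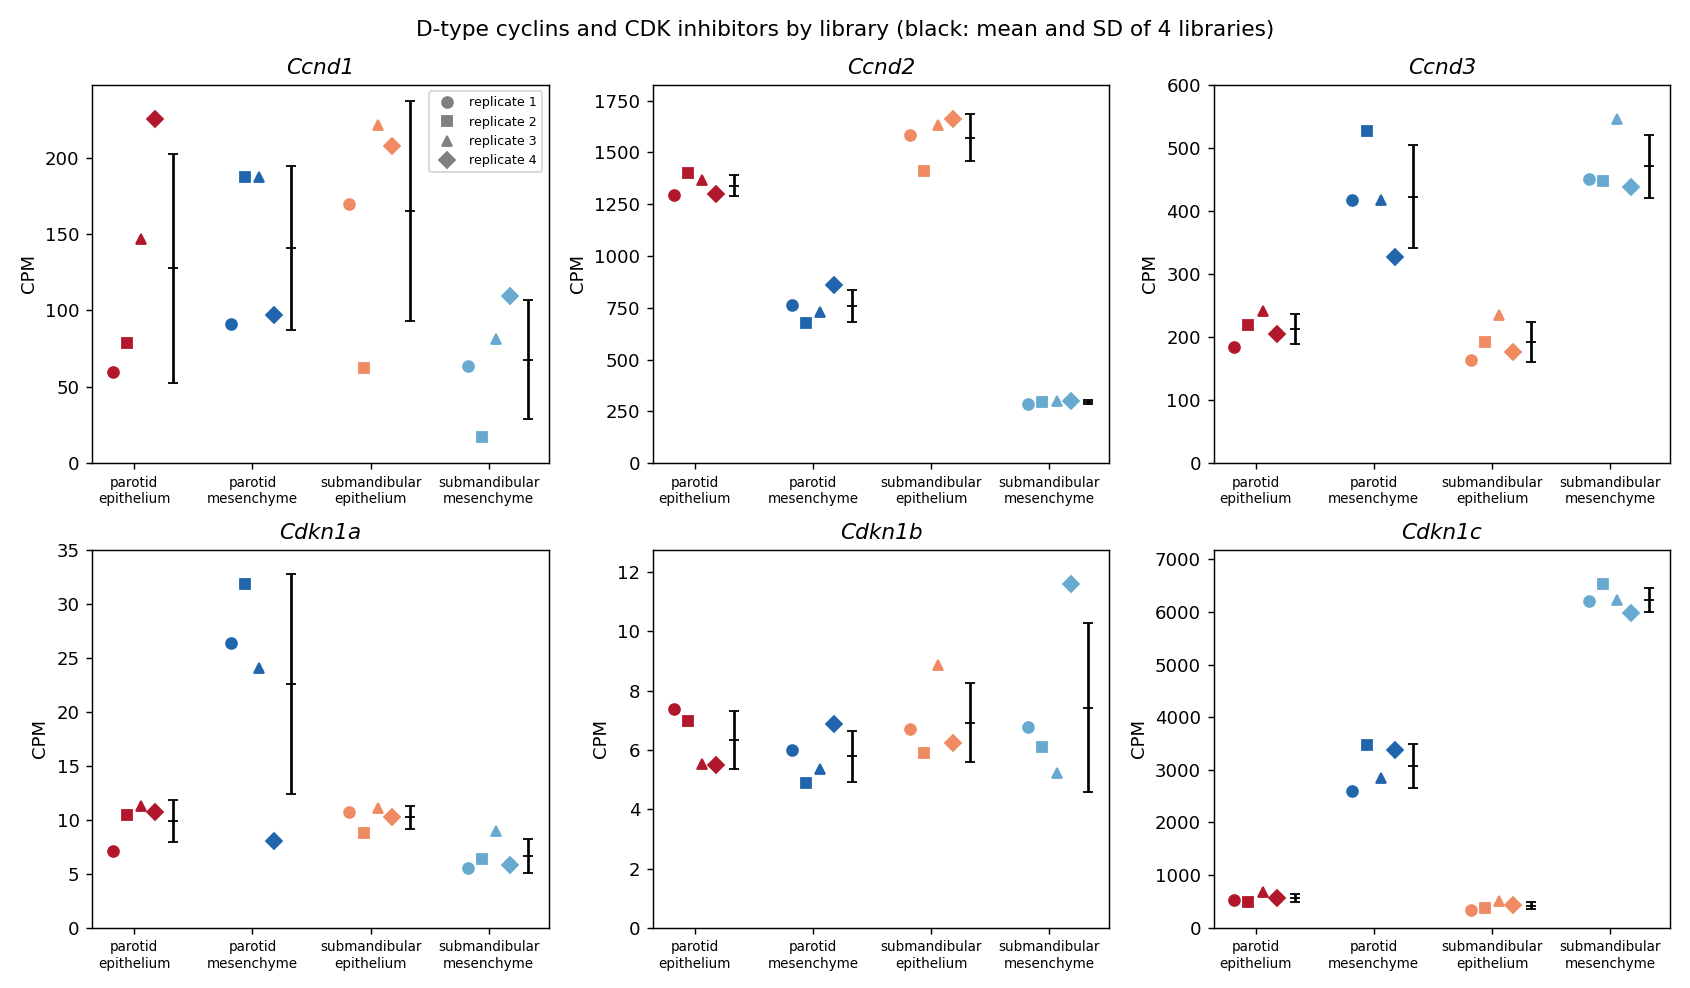
CPM per library (y axis) of the D-type cyclins Ccnd1, Ccnd2 and Ccnd3 and the inhibitors Cdkn1a, Cdkn1b and Cdkn1c in the 4 groups (x axis), with black bars for the mean and SD of 4 libraries. Ccnd2 is lowest in submandibular mesenchyme, Cdkn1c is highest there, and Cdkn1a is high in 3 of the 4 parotid mesenchyme libraries.

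The inhibitors of cyclin-dependent kinases did not share a pattern. Cdkn1a (chr17:29090976-29100727), which encodes p21, the inhibitor induced by p53, measured 7.08, 10.5, 11.3 and 10.7 CPM in parotid epithelium, against 26.4, 31.8, 24.0 and 8.08 CPM in parotid mesenchyme. Submandibular levels were 10.7, 8.75, 11.1 and 10.3 CPM in epithelium, against 5.51, 6.39, 8.93 and 5.83 CPM in mesenchyme. Parotid mesenchyme was high in replicates 1 to 3, while replicate 4 lay within the range of the epithelial libraries. The log2 fold change was -1.19 ± 0.30 in the parotid (adjusted p = 0.00206) and 0.62 ± 0.30 in the submandibular gland (adjusted p = 0.0815). The parotid value was -1.51 without parotid mesenchyme replicate 4. The submandibular value passed the threshold in the fit of its 8 libraries alone and without parotid mesenchyme replicate 4 or submandibular mesenchyme replicate 3. Cdkn1b (chr6:134920401-134925513), which encodes p27, stayed at 4.88 to 11.6 CPM in all 16 libraries. It measured 7.38, 6.99, 5.51 and 5.49 CPM in parotid epithelium, against 6.01, 4.88, 5.37 and 6.86 CPM in parotid mesenchyme. It measured 6.72, 5.88, 8.86 and 6.23 CPM in submandibular epithelium, against 6.79, 6.09, 5.21 and 11.6 CPM in submandibular mesenchyme. Its layer fold changes of 0.13 ± 0.23 and -0.10 ± 0.23 did not pass (adjusted p = 0.632 and 0.718).

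Among 29 tested genes from a list of 30 other G1 regulators and inhibitors, 14 were higher and 7 lower in parotid epithelium. In submandibular epithelium 17 were higher and 9 lower. Of all genes, 31.4% were higher and 33.5% lower in the parotid, and 33.3% and 33.7% in the submandibular gland. The lower calls did not exceed those shares. Cdkn1c (chr7:143458339-143461050), which encodes the related inhibitor p57, stood far from the members of the main set. It measured 528, 498, 672 and 557 CPM in parotid epithelium, against 2596, 3474, 2842 and 3374 CPM in parotid mesenchyme. The submandibular libraries had 346, 382, 503 and 431 CPM in epithelium, against 6199, 6529.5, 6235 and 5972 CPM in mesenchyme. It was lower in epithelium by -2.45 ± 0.13 (adjusted p = 5.25e-11) and -3.91 ± 0.13 (adjusted p = 9.27e-13). Myc, a transcription factor of growth and division, was higher in epithelium by 2.16 ± 0.20 and 2.54 ± 0.20. It averaged 363 ± 54.6 CPM in parotid epithelium and 81.0 ± 21.0 in parotid mesenchyme, and 188 ± 46.3 in submandibular epithelium and 32.4 ± 5.48 in submandibular mesenchyme (SD, n = 4 each).

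Few of these genes were called between the epithelia. Of 48 genes, 2 were higher and 1 was lower in parotid epithelium, against 11.2% higher and 9.72% lower among all genes, and the median log2 fold change was -0.03. The 3 genes called were not mitotic, and the mitotic genes' fold changes ran between -0.29 and 0.44. Mcm2 averaged 373 ± 52.4 CPM in parotid epithelium and 278 ± 27.8 in submandibular epithelium (SD, n = 4 each, log2 fold change 0.42 ± 0.12, adjusted p = 0.019). E2f1 averaged 42.9 ± 1.78 and 33.1 ± 4.30 CPM in the same groups (0.37 ± 0.12, adjusted p = 0.0412), and Ccnd2 1339.5 ± 51.7 and 1571 ± 112 CPM (-0.23 ± 0.08, adjusted p = 0.0398). None of these 3 calls held throughout: they were lost in 3, 8 and 12 of the 16 fits that left out 1 library. All 3 were lost without parotid epithelium replicate 3 or 4 and without submandibular epithelium replicate 1, and when both epithelial libraries with most erythroid counts were left out. Those libraries were parotid epithelium replicate 4 and submandibular epithelium replicate 1. Leukocyte markers moved with this comparison, with 8 of 9 higher in parotid epithelium (sums of 16.6 to 26.2 CPM, against 3.38 to 8.86 in submandibular epithelium). Endothelial markers had 4 of 8 higher and 1 lower (sums of 2.12 to 11.6 CPM, against 3.45 to 6.05), and mesenchymal markers 3 of 12 higher and none lower (sums of 81.2 to 396 CPM, against 21.6 to 299). Of the other lists, 1 of 6 Schwann cell and 1 of 8 skeletal muscle markers were higher, and 2 of 6 smooth muscle, 1 of 7 nerve and 2 of 12 epithelial markers were lower. The part of these cells was not tested.

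Between the mesenchymes, 9 of the 48 genes were higher in the parotid and none was lower, against 20.8% higher and 13.7% lower among all genes. The share of higher calls, 9 of 48, was close to that background. The median log2 fold change was 0.14, beside 0.04 over all genes. The 9 were the cyclins Ccnd2 and Ccne1, the transcription factors E2f1, E2f2, Mybl2 and Foxm1, the loading factor Cdc6, the survivin gene Birc5 and the inhibitor Cdkn1a. Only Ccnd2 kept the glands apart in every library, at 1.36 ± 0.08 (adjusted p = 2.24e-09). The other 47 genes overlapped, whereas 21.7% of all genes had every parotid library above every submandibular library.

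Cdkn1a had the highest fold change, 1.76 ± 0.31 (adjusted p = 0.000265), carried by replicates 1 to 3 of parotid mesenchyme. E2f2 measured 24.7, 22.7, 16.8 and 7.002 CPM in parotid mesenchyme, against 5.67, 5.29, 9.65 and 9.04 CPM in submandibular mesenchyme. Replicate 4 of parotid mesenchyme lay inside the submandibular range, and the log2 fold change was 1.26 ± 0.31 (adjusted p = 0.00416). Ccne1 measured 137, 155, 112 and 78.1 CPM in parotid mesenchyme, against 75.9, 74.8, 71.4 and 86.6 CPM in submandibular mesenchyme (0.64 ± 0.15, adjusted p = 0.00313). Mybl2 measured 36.2, 33.2, 20.3 and 17.7 CPM in parotid mesenchyme, against 13.3, 15.5, 16.5 and 18.1 CPM in submandibular mesenchyme (0.76 ± 0.19, adjusted p = 0.00562). In each of these genes the overlap came from parotid mesenchyme replicate 4, and without it the fold changes were 2.05 for Cdkn1a, 1.54 for E2f2, 0.81 for Ccne1 and 0.92 for Mybl2. These 4 genes and Ccnd2 kept their calls in all 16 fits that left out 1 library, and E2f1 did too. Cdc6, Foxm1 and Birc5 lost theirs in 4, 5 and 12 of those fits, all 3 of them without parotid mesenchyme replicate 1 or 2. Ccnd1 (1.06 ± 0.56, adjusted p = 0.163), Ccnd3 (-0.16, adjusted p = 0.408) and Cdkn1b (-0.36, adjusted p = 0.255) did not pass between the mesenchymes. With scaling by total counts 5 genes were higher and 2, Mcm4 and Aurka, were lower. That scaling also turned the split over all genes to 2540 higher and 4245 lower, against 3785 and 2497 in the main fit, and moved the median of all genes to -0.14.

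The count between the mesenchymes depended most on parotid mesenchyme replicate 4. Without it, 19 of the 48 genes were higher in parotid mesenchyme and none was lower, against 19.8% higher and 11.9% lower among all genes. They were 8 of the 20 S phase genes, 9 of the 23 mitotic genes, and Ccnd2 and Cdkn1a, and they held all 9 of the calls made with it. The 10 added were Mcm7, Cdk2, Rrm2 and Tyms, and the mitotic genes Ccna2, Cdc20, Aurkb, Plk1, Kif11 and Ube2c. The median fold change of the 48 genes was 0.25 without it. In that library all 20 S phase and all 23 mitotic genes were below the other 3 libraries of its group, at a median of 67.7% and 64.9% of their mean, while Ccnd2 was highest there.

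**Figure D5:**
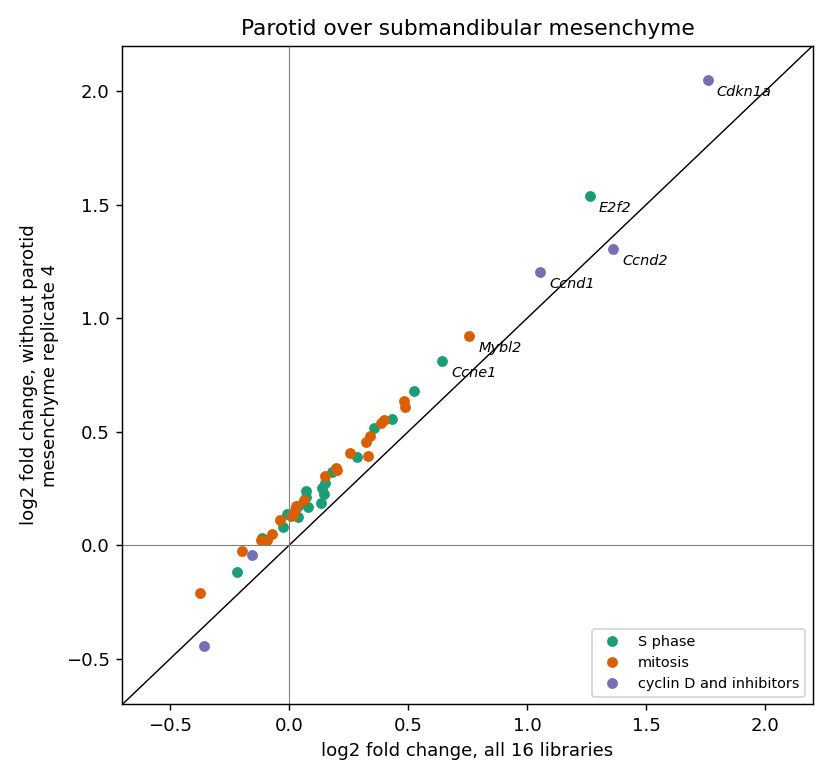
Log2 fold change of the 48 genes, parotid over submandibular mesenchyme, fitted with all 16 libraries (x axis) and without parotid mesenchyme replicate 4 (y axis), coloured by class, with the line of equality. The S phase and mitotic genes lie above the line, whereas Ccnd2 lies just below it at 1.36 and 1.31.

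Parotid mesenchyme replicate 4 also differed in its markers. Its skeletal muscle sum was 388 CPM, against 1301 to 1517 in the other 3 parotid mesenchyme libraries and 172 to 354 in submandibular mesenchyme. Its smooth muscle sum was 180.6 CPM, against 331 to 363 in the other 3 and 72.1 to 89.0 in submandibular mesenchyme. Its mesenchymal marker sum of 31300.1 CPM was the highest of its group, and its nerve marker sum was 607 CPM, against 258 to 427 in the other 3 and 29.9 to 163 in submandibular mesenchyme. Between the glands, 7 of 8 skeletal muscle markers and 5 of 6 smooth muscle markers were higher in parotid mesenchyme, and none was at 0 in any mesenchymal library. The part of muscle cells in these gene differences was not tested.

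A test of whether the layer difference itself differed between the glands called 4 of the 48 genes, all lower. Among all genes 8.67% were higher and 12.2% lower, so the lower calls did not exceed that share. With total count scaling that split over all genes was 2380 higher and 1599 lower, against 1577 and 2222. The value is the parotid layer fold change minus the submandibular one. Ccnd2 stood at -1.59 ± 0.11 (adjusted p = 3.86e-08) and Cdkn1a at -1.81 ± 0.42 (adjusted p = 0.00559), and both calls held in all 16 fits that left out 1 library. E2f2 stood at -1.37 ± 0.43 (adjusted p = 0.0306) and lost its call in 7 of the 16 fits (without parotid epithelium replicate 1, parotid mesenchyme replicate 1 or 2, submandibular epithelium replicate 3 or 4, or submandibular mesenchyme replicate 1 or 2). Ccna2, the cyclin of S phase and early mitosis, stood at -0.63 ± 0.19 (adjusted p = 0.0229) and lost its call in 6 (without parotid epithelium replicate 4, parotid mesenchyme replicate 1 or 2, submandibular epithelium replicate 1 or 3, or submandibular mesenchyme replicate 2). It measured 232, 257, 224 and 221 CPM in parotid epithelium, against 148, 138, 116 and 86.8 CPM in parotid mesenchyme. In the submandibular gland it measured 297, 273, 303 and 269 CPM in epithelium, against 89.6, 84.0, 98.2 and 114 CPM in mesenchyme. Without parotid mesenchyme replicate 4 the count was 12 lower, against 12.1% lower among all genes, and it held all 4, at -1.54 for Ccnd2, -2.10 for Cdkn1a, -1.65 for E2f2 and -0.78 for Ccna2. The 8 added were Ccne1, Ccne2, Gmnn, Rrm2, Tyms, Birc5, Kif11 and Mybl2.

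The G1 list held further gland differences. In mesenchyme, 11 of its 29 genes were higher and 4 lower in the parotid, against 20.8% higher and 13.7% lower among all genes. The 4 lower calls were close to that background. Mycl, a relative of Myc, averaged 46.7 ± 3.76 CPM in parotid mesenchyme and 11.9 ± 1.78 in submandibular mesenchyme (SD, n = 4 each, log2 fold change 1.98 ± 0.19, adjusted p = 7.37e-07). Rb1, the retinoblastoma gene that D-type cyclins act on, averaged 55.2 ± 7.004 and 26.5 ± 1.27 CPM in the same groups (1.06 ± 0.13, adjusted p = 1.05e-05). Cdkn1c was lower in parotid mesenchyme by -1.02 ± 0.12 (adjusted p = 5.52e-06), and its layer difference also differed between the glands (1.46 ± 0.17, adjusted p = 1.05e-05). Of 15 p53 targets other than Cdkn1a, 5 were higher and 3 lower in parotid mesenchyme (20.8% and 13.7% of all genes). Their median was 0.01. Eda2r, a receptor of ectodysplasin, was the farthest apart, at 0.602 ± 0.383 CPM in parotid mesenchyme and 10.9 ± 2.02 in submandibular mesenchyme (-4.13 ± 0.40, adjusted p = 6.66e-07). Its layer difference also differed between the glands (4.84 ± 0.52, adjusted p = 5.21e-06). The cell death genes Bbc3 and Pmaip1 differed by 1.07 and -0.88. Phlda3 was the highest in parotid over submandibular mesenchyme, at 52.2 ± 5.02 and 15.8 ± 1.76 CPM (1.73 ± 0.12, adjusted p = 1.84e-08). In the layer comparison 6 of these 15 were higher and 3 lower in the parotid, against 31.4% and 33.5% of all genes. In the submandibular gland 6 were higher and 5 lower, against 33.3% and 33.7%. The 5 lower calls were close to that background. Perp, a junction protein of epithelia, was the farthest apart by layer in both glands, at 7.03 and 8.63.

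Per unit of exon length, the genes spanned a wide range of levels. Their order depends on the lengths used, which join all annotated exons of a gene. The highest in parotid epithelium were Rrm2 at 147.6 ± 18.3 RPKM, Ccnd2 and Mcm6. In parotid mesenchyme and submandibular epithelium the same genes led, while submandibular mesenchyme was led by Mcm6 at 75.3 ± 4.64 RPKM and Mcm4 at 73.7 ± 5.55 RPKM. Cdkn1b and E2f2 were the lowest in every group, at 1.27 to 3.65 RPKM on average (SD, n = 4 each).

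Spread between libraries was widest in parotid mesenchyme for mitotic and S phase genes. The mitotic genes varied more than the S phase genes except in submandibular epithelium. Over the 23 mitotic genes the median coefficient of variation was 13.6% in parotid epithelium, 23.3% in parotid mesenchyme, 9.96% in submandibular epithelium and 13.1% in submandibular mesenchyme. Over the 20 S phase genes it was 9.80%, 20.1%, 10.3% and 7.25% in the same groups. Without replicate 4 the parotid mesenchyme values were 14.4% for the mitotic and 11.7% for the S phase genes.

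A few values carry a counting limit. The library kit does not mark strand, and 14 of the 48 genes have exonic bases overlapped by a gene on the opposite strand, most in Gins2 and then Kif20a (29.3%, by Cdc23), Ccnd1 and Ube2c (22.8%, by Tnnc2). Next came Ccne2 (17.4%, by Ints8). Highest group means were 278 CPM for Cdc23 and 159 CPM for Ints8, against 231 for Kif20a and 128 for Ccne2. Tnnc2 was not among the genes tested. Pcna, the sliding clamp of replication, averaged 156 ± 17.5 CPM in parotid epithelium and 86.5 ± 12.5 in parotid mesenchyme, and 181 ± 19.0 in submandibular epithelium and 81.9 ± 10.3 in submandibular mesenchyme (SD, n = 4 each). Its copy Pcna-ps2 was counted at 25.2 ± 2.82, 15.6 ± 2.81, 34.2 ± 3.20 and 14.8 ± 1.21 CPM in those groups, so the level of Pcna is uncertain to that extent. The copies of Ccnb1, Ccnb2 and Ccnd3 stayed under 3 CPM in every library.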

How the data were processed

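Epithelium and mesenchyme of E13 parotid and submandibular glands were profiled by RNA-seq. Per the labels' protocols, full-length cDNA was made from total RNA with the SMART-Seq v4 kit, which does not mark strand, and libraries with Nextera XT on a NextSeq instrument. Per the submitters' processing notes, STAR 2.5.2a, edgeR and the build GRCm38 (mm10) were used; no source used here gives the annotation or the strand setting. The deposited tables hold the authors' raw read counts per gene, a filtered copy of them with 23400 features, and a signal table of CPM after TMM scaling. TMM in edgeR on the deposited filtered counts returned that CPM for the 48 genes, to machine precision. CPM printed here came from the raw counts without 92 spike-in features and differed from the authors' by at most 4.45%.

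Counts were scaled by TMM and tested in edgeR 4.0.16 (R 4.3.3) with 1 coefficient per group over all 16 libraries, on 18191 genes kept by filterByExpr, and adjusted by Benjamini-Hochberg at 0.05. The fit was run on simulated counts in which few genes were changed. The layer comparisons here had far more genes called, so that run does not test the scaling between layers. A count of 1 was worth 0.0360 to 0.0548 CPM, and libraries held 16912258 to 27646844 gene counts. P-values set a difference between groups against the spread between libraries within groups. That spread was estimated per gene over all 4 groups together and moderated across genes. Parotid mesenchyme varied more than the other groups in the S phase and mitotic genes. RPKM used GENCODE vM21 lengths with all annotated exons of a gene joined. Replicate numbers showed no general pairing: 3 of 24 same-number correlations of deviations were over 0.1, beside 6 of 72 other-number ones. Between the submandibular layers the same-number values were 0.21, 0.22, 0.05 and 0.02, and other-number values reached 0.21. Whether those layers are paired is not settled. All 24 within-group library pairs differed beyond sampling noise. Named genes were the members farthest and least apart by layer in each class, those called by at least 1.5-fold between glands or in the interaction, and the cyclin D and inhibitor genes; of other lists, those farthest apart. Other genes were named for their role or after their values were seen. Members and lists were chosen with earlier results of these data known. The alternatives tried were RLE and total count scaling, DESeq2 1.42.0, limma-voom (limma 3.58.1), looser and stricter filters, the 8 libraries compared alone, a replicate block, and leaving out each library.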

Additional observations from a re-analysis of the deposited data

Results flagged for a closer look

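Values of single libraries stood away from the other 3 of their group in 8 of 192 sets of 4 by Dixon's criterion at its 95% critical value, and chance flags about 1 in 20 such sets. In parotid epithelium, E2f1 was 45.58 CPM in replicate 4 against 41.8 to 42.3 in the others, Ccnb1 was 462.5 CPM in replicate 1 against 350.1 to 364, and Birc5 was 225.8 CPM in replicate 1 against 186 to 189. Mcm7 was 99.33 CPM in parotid mesenchyme replicate 4 against 147 to 155 in the others. In submandibular epithelium, Mcm5 was 272.3 CPM in replicate 1 against 317 to 322. In submandibular mesenchyme, Rrm2 was 176.4 CPM in replicate 4 against 122 to 131, Tpx2 was 80.05 CPM in replicate 2 against 99.0 to 102, and Ccnd3 was 546.2 CPM in replicate 3 against 439 to 452. The causes were not tested.

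A difference in layer effect between the glands was called for 4 of the 48 genes by the interaction term in edgeR, all lower. Among all genes 12.2% were called lower, a share that the 4 calls did not exceed. The parotid layer fold change minus the submandibular one was -1.374 for E2f2, -0.6296 for Ccna2, -1.593 for Ccnd2 and -1.807 for Cdkn1a. The calls of E2f2 and Ccna2 were lost in 7 and 6 of the 16 fits that left out 1 library.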

How the results depend on the processing

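The layer counts over all 48 genes kept their direction and stayed within 1.5 times under every alternative, except that 1 gene instead of 2 was lower in parotid epithelium when 2-fold was also required. E2f2 was called lower in the parotid in DESeq2 and without parotid mesenchyme replicate 4. By class, 2-fold left 8 of 17 and 10 of 18 S phase genes higher, and in the parotid 0 of 1 cyclin D or inhibitor gene higher and 1 of 2 lower. Leaving out 1 library gave 38 to 41 genes higher by layer in the parotid and 40 to 43 in the submandibular gland. For parotid against submandibular epithelium, the 2 genes higher became 1 with total count scaling, 1 with the replicate block, and 0 when both epithelial libraries with most erythroid counts were left out or 2-fold was required (0 to 3 with 1 library left out). The 1 gene lower became 0 with RLE scaling, no low count filter, the authors' scaling, the erythroid pair left out or 2-fold, and in the 8 libraries alone Ccnd2 lost its call (-0.24) while Ccna2 was called (-0.30) (0 to 2 with 1 library left out). For the mesenchymes, the 9 genes higher became 5 with total count scaling, 5 in the 8 libraries alone and 3 at 2-fold (6 to 19 with 1 library left out). The 0 genes lower became 2 with total count scaling, 1 with a stricter filter and 1 without the erythroid pair (0 to 1 with 1 library left out). For the interaction, the 0 genes higher became 1 with total count scaling, DESeq2, a stricter filter or the authors' scaling (0 to 1), and the 4 lower became 2 with total count scaling and 2 without the erythroid pair (2 to 12). Mcm4 was the gene behind those interaction calls, and the gene lower between the mesenchymes with the stricter filter and without the erythroid pair. Whether replicate numbers pair the libraries of the submandibular layers is not settled. The replicate block removed the calls of E2f2 (0.76 in the submandibular layers, -1.40 in the interaction), E2f1 (0.37, epithelia) and Birc5 (0.37, mesenchymes), and added Cdk2 (0.17) and Ccnd1 (1.34) in the submandibular layers and Tyms (0.27) between the mesenchymes.

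Signs turned in 10 fits with 1 library left out, for values that did not pass the test there or in the main fit: Ccnd1 in the parotid layers (range -0.5588 to 0.1037), Cdkn1b in the submandibular layers (range -0.2535 to 0.1953), E2f1 there (range -0.1375 to 0.01009), Cdkn1a between the epithelia (range -0.1175 to 0.1046), Cdkn1b between the epithelia (range -0.1819 to 0.03387) and Cdkn1b in the interaction (range -0.06127 to 0.3972). The authors' scaling and the erythroid pair were chosen after seeing the data. The causes were not tested. The 4 libraries per group limit precision, most for Ccnd1, whose layer fold changes had an SE of 0.55 in the parotid and 0.56 in the submandibular gland. Cdkn1b, at 4.88 to 11.6 CPM, had an SE of 0.23 in both.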
